A study of Oryctolagus cuniculus with 16 samples.

Results

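The genes described here encode the secreted Wnt ligands, their receptors and co-receptors, the R-spondin module, the secreted antagonists, and the relay and nuclear factors of the pathway. They were taken from the count table by symbol: all numbered WNT and FZD genes, the SFRP, DKK and RSPO families, LGR4 to LGR6, LRP5, LRP6, AXIN1, AXIN2, ROR1 and ROR2, together with FRZB, WIF1, NOTUM, RNF43, ZNRF3, LEF1, TCF7, TCF7L1, TCF7L2 and CTNNB1. This gave 48 of the 13001 named genes in the table, namely 17 ligands, 7 Frizzled receptors, 3 co-receptors, 7 genes of the R-spondin module, 8 antagonists and 6 relay and nuclear genes. Enough reads for a test were present for 39 of them, out of 10942 genes tested in all. Genes of this rule without a row in the table were not analysed here. LRP5, AXIN1, NOTUM, WNT4, WNT7B, FZD2, SFRP1 and RSPO1 are among them. Statements on a role cover only the genes present.

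The study asked how the vaginal wall heals after surgery with and without a graft, and sequenced poly(A) RNA from the vagina of juvenile female rabbits of the New Zealand White strain, which were 17 to 19 weeks old. There were 4 PLATE libraries (animals 1, 5, 9 and 13), from vaginas that received a graft carrying particles of the animal's own tissue. The acellular group had 3 libraries (animals 6, 8 and 10), from vaginas with a graft without particles. Sham operation gave 3 libraries (animals 11, 12 and 14), and native vagina without surgery gave 6 control libraries (animals 2, 9, 16, 24, 25 and 29). All animals were of the same strain and no allele or drug was named for any group. Tissue of both graft groups was taken 10 mm from the graft, so the libraries describe the neighbouring wall and not the graft itself. No sampling distance was given for sham and control tissue, so graft and sampling site cannot be told apart in comparisons with them. The time after surgery was not given in the labels. The animal number 9 occurs in a PLATE and in a control label, and these libraries were treated as separate animals.

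Wnt proteins are lipid-modified secreted signals that bind Frizzled receptors. With the co-receptor LRP6 this binding stops the breakdown of β-catenin, encoded by CTNNB1, which then enters the nucleus and acts through TCF and LEF factors. Other Wnts signal through ROR receptors without β-catenin. R-spondins bind LGR receptors and keep the ubiquitin ligases RNF43 and ZNRF3 from removing Frizzled, while SFRP, FRZB, WIF1 and DKK proteins restrain the signal outside the cell. In the female reproductive tract, Wnt signalling is known for its part in duct formation, in the exchange between epithelium and stroma, and in the patterning of smooth muscle.

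Levels are given in CPM, the usual unit of read counts scaled to library size, computed here over named genes and corrected for library composition. They allow a gene to be compared between libraries and not with another gene, because no gene lengths were used. Values of a group are listed in the order of the animal numbers above, and for the 6 controls as the lowest, the median and the highest. Libraries held 20992063 to 30695000 counts, and 3 counts, taken as the least that can be told from none, were worth 0.120 to 0.270 CPM depending on the library. Libraries PLATE 1 and control 2 stood apart. The summed level of 6 columnar epithelium markers was 12.8 CPM in control 2, where the epithelial factor GRHL2 had no read, and 174 CPM in PLATE 1, against 218 to 1083 CPM in the other 14 libraries. The summed level of 5 leukocyte markers was 1302 CPM in PLATE 1 and 69.7 to 483 CPM in the other 15 libraries. Of the markers of stratified squamous epithelium, 3 were in the table. They summed to 7.11 CPM in control 2 and to 58.9 to 280.0 CPM in the other 15 libraries. Over all libraries KRT15 averaged 119 CPM, KRT5 11.8 CPM and TP63 8.46 CPM, so this sum mostly reflects KRT15. Where leaving these libraries out moved a fold change described below by over 1.5 times, the value without both, or without PLATE 1 alone, is given beside it.

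No Wnt gene passed an adjusted p of 0.05 in any comparison, by edgeR's quasi-likelihood test over all 10942 genes, and neither did any other gene (0%). DESeq2 and limma voom also called 0 of the members. At an unadjusted p under 0.05, 2 of the 39 were found in PLATE against control, where 4.34% of all genes were: DKK3 and LEF1, both higher (3.26% of all genes in that direction). Acellular against control had 2, WNT2B and WNT8A, both lower, with 5.91% of all genes and 4.17% in that direction. Sham against control also had 2, DKK1 and WNT16, both lower, with 2.93% of all genes and 1.75% in that direction. WNT16 passed the filter on low counts mainly through controls 9, 16 and 29, so its direction here was partly set by the filter. Counts between the operated groups were smaller. WNT2B, at a lower level, was the sole such member in PLATE against sham, where 7.43% of all genes were found and 1.63% were lower. The same was so in acellular against sham, where 4.82% were found and 3.07% were lower. PLATE against acellular had 0 members, with 4.64% of all genes. In the mean of the 3 operated groups against control there were 3, DKK3 (higher), DKK1 and WNT2B (both lower), with 3.84% of all genes, 0.868% higher and 2.97% lower. A joint test for any difference among the 4 groups found WNT2B, with 4.70% of all genes. With 0 to 3 of 39 members in each test, the counts are too small to compare with these shares. They do not set the members apart.

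**Figure D1:**
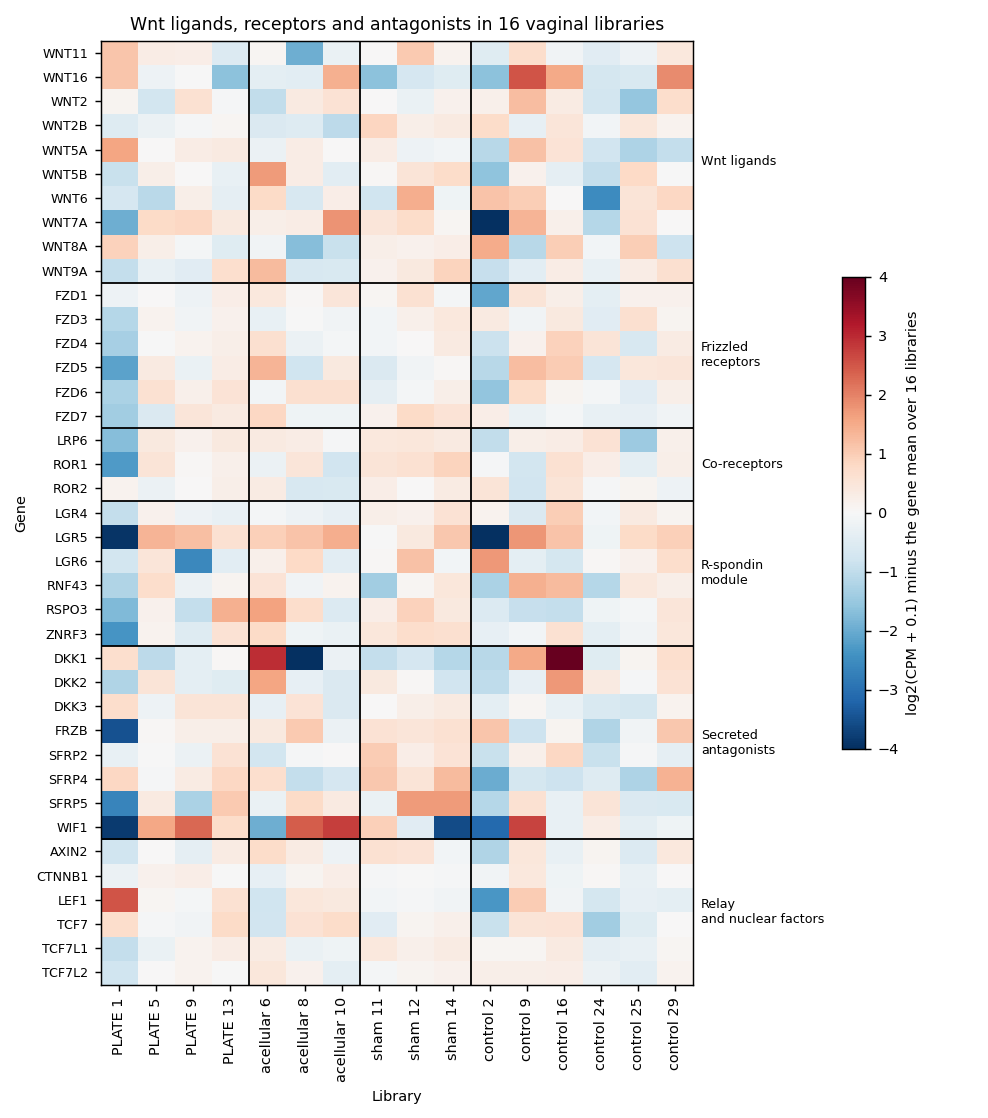
Each row is a Wnt gene and each column a library, ordered PLATE, acellular, sham and control; colour is log2(CPM + 0.1) minus the gene's mean over the 16 libraries. PLATE 1 is the lowest of the 16 libraries for 16 of the 39 tested genes, and control 2 stands out for the low LGR5 and WNT7A.

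With control 2 and PLATE 1 left out, 0 members had an unadjusted p under 0.05 in PLATE against control (1.73% of all genes) and 1, WNT2B, in acellular against control (7.3% of all genes). The sham against control comparison then had 4, namely FZD7, SFRP5, DKK1 and WNT16, with 7.62% of all genes, so that the share over all genes was higher as well. With all libraries, the median log2 fold change of the 39 genes was -0.08 in PLATE against control (-0.01 over all genes). It was 0.09 in acellular against control (-0.03) and 0.11 in sham against control (-0.06). Without control 2 and PLATE 1, these 3 medians of the members were 0.02, 0.03 and 0.10. The lowest median with all libraries was that of PLATE against acellular, -0.25 against 0.02 over all genes. There 27 of 39 members and 47.6% of all genes were lower in PLATE libraries. When control 2 and PLATE 1 were left out, this median was -0.09, and 22 of 39 were lower.

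Among the ligands, WNT2B differed most between the groups. WNT2B is made by the mesenchyme of several organs and signals through β-catenin. Its level was 10.15, 12.3, 14.1 and 15.4 CPM in PLATE libraries, 9.67, 10.08 and 7.004 CPM in acellular libraries, and 26.0, 17.0 and 18.4 CPM in sham libraries. In controls the lowest value was 11.4, the median 17.9 and the highest 24.0 CPM. All acellular libraries were below every library of the other 3 groups, although acellular 8 and PLATE 1 were almost equal, and the PLATE libraries were all below the sham libraries. In the fit, WNT2B was lower in acellular than in sham libraries by a log2 fold change of -1.20 ± 0.287 (SE; rank 3 of 10942 by p, edgeR adjusted p = 0.905). Against control the log2 fold change was -0.96 ± 0.257 (rank 11, edgeR adjusted p = 0.829). The PLATE value was -0.66 ± 0.263 against sham (edgeR adjusted p = 0.659) and 0.54 ± 0.269 against acellular (edgeR adjusted p = 0.878).

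Leaving out each library in turn kept the acellular values of WNT2B between -1.32 and -0.97 against sham, and between -1.06 and -0.82 against control. They were -1.18 and -0.83 without control 2 and PLATE 1. Groups without overlap were found for 18.3% of all genes in acellular against sham (6 members), 14.9% in PLATE against sham (3 members), 1.73% in acellular against control (1 member) and 4.97% in PLATE against acellular (1 member). In PLATE against control and in sham against control no member was free of overlap, with 0.119% and 3.69% of all genes. The members free of overlap in acellular against sham were WNT16, which was higher (7.82% of all genes in that direction), and WNT2B, WNT8A, LGR4, ROR1 and SFRP2, which were lower (10.5%). For WNT16 this holds only after scaling and near the floor of detection. Its counts were 3, 2 and 15 in acellular and 0, 2 and 3 in sham libraries, and these overlap. In PLATE against sham the members free of overlap were WNT2B, ROR1 and FRZB, all lower (6.95%). WNT2B was the member below the controls in acellular libraries (1.02%) and above the acellular libraries in PLATE libraries (3.27%).

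Among the operated groups, the summed level of smooth muscle markers was also lowest in acellular libraries. For ACTG2, ACTA2, DES and SMTN all acellular libraries were below all PLATE and sham libraries. MYH11 and LMOD1 overlapped with PLATE libraries, where the lowest values were 6827 and 164 CPM. The acellular libraries had 7547 to 10856 CPM of MYH11 and 273 to 467 CPM of LMOD1. The summed level of the 6 smooth muscle markers in the table was 28981 to 47599 CPM in PLATE, 13211 to 17908 CPM in acellular, 36945 to 62750 CPM in sham and 9094 to 156462 CPM in control libraries, with no marker at 0. The fibroblast markers, all 8 present, summed to 25602 to 49961 CPM in PLATE, 12185 to 20056 CPM in acellular, 25988 to 54264 CPM in sham and 17865 to 48730 CPM in control libraries. This sum mostly reflects COL3A1, COL1A2 and DCN, which averaged 9583, 7948 and 6621 CPM over all libraries. By group mean, every marker except DCN was lower in acellular than in PLATE and sham libraries. DCN averaged 6879 CPM in acellular, 5725 CPM in PLATE, 9342 CPM in sham and 5730 CPM in control libraries. PDGFRA averaged 92.7, 97.9, 99.6 and 74.6 CPM in the same order. The part of either tissue in the WNT2B values was not tested. In RNA of whole tissue, fewer cells of a type and less RNA per cell cannot be told apart.

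**Figure D2:**
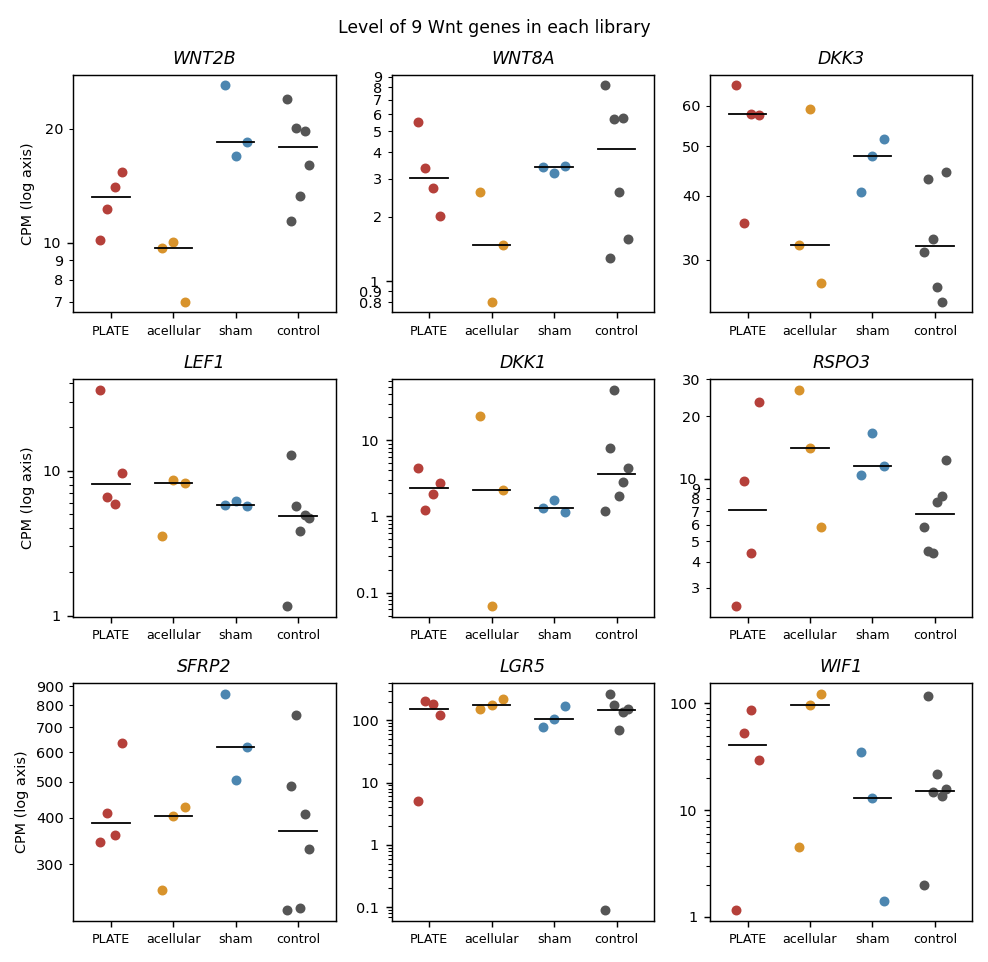
Each dot is a library, each line the group median, and the vertical axis is CPM on a log scale for 9 Wnt genes. The acellular libraries lie lowest for WNT2B (7.004 to 10.08 CPM), while the PLATE 1 library carries the high LEF1 value of 36.3 CPM and the lowest WIF1 value.

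WNT8A, a ligand of the β-catenin branch known mainly from early embryos, was at 5.50, 3.36, 2.72 and 2.02 CPM in PLATE libraries and at 2.60, 0.806 and 1.48 CPM in acellular libraries. Sham libraries had 3.40, 3.21 and 3.46 CPM, and controls a lowest value of 1.28, a median of 4.15 and a highest of 8.19 CPM. Acellular libraries were all below the sham libraries and overlapped the controls. Its log2 fold change in acellular against control was -1.34 ± 0.595 (edgeR adjusted p = 0.829), and -1.85 without acellular 6. WNT8A in PLATE against acellular had 1.05 ± 0.621, with 1.56 without acellular 6 and 0.69 without control 2 and PLATE 1.

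WNT16, which acts in skin and bone, was near the limit of detection. It had 9, 4, 4 and 0 counts in PLATE libraries, 3, 2 and 15 in acellular libraries, 0, 2 and 3 in sham libraries, and 0, 42, 18, 2, 2 and 21 in control libraries. The sham libraries lay within the low end of the controls. The fitted log2 fold change in sham against control was -3.00 ± 1.40 (edgeR adjusted p = 0.964) and rests on 5 counts in all in the sham libraries. The gene passed the filter on low counts mainly through controls 9, 16 and 29, with 42, 18 and 21 counts. A lower level in sham libraries was thus partly set by the filter.

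WNT2, a stromal ligand of the female tract, was at 19.3, 10.7, 27.2 and 17.2 CPM in PLATE, 9.08, 22.8 and 26.8 CPM in acellular and 18.3, 15.0 and 20.4 CPM in sham libraries, against 6.07, 21.4 and 42.3 CPM as the lowest, median and highest control. All 4 groups overlapped. WNT5A, a ligand that signals through ROR receptors, was at 26.3, 8.91, 10.9 and 11.4 CPM in PLATE libraries, 7.52, 10.8 and 8.93 CPM in acellular libraries and 10.7, 7.56 and 8.11 CPM in sham libraries. The controls ran from 3.68 over a median of 4.84 to 20.0 CPM. The median control lay below all 10 operated libraries, yet the groups overlapped, and the WNT5A log2 fold change in PLATE against control was 0.77 with a 95% interval of -0.22 to 1.77, and 0.17 without control 2 and PLATE 1, the library with the highest value.

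WNT5B, the close relative of WNT5A, was at 3.04, 6.81, 5.86 and 4.67 CPM in PLATE libraries and at 19.0, 7.12 and 4.29 CPM in acellular libraries. It was at 5.96, 8.28 and 9.72 CPM in sham libraries and between 1.80 and 10.0 CPM in controls. The high acellular mean was carried by acellular 6: the log2 fold change in acellular against control was 0.94 ± 0.491 with it and 0.11 without it, and in PLATE against acellular -0.99 ± 0.542 with it and -0.16 without it.

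WNT7A, the ligand of the epithelium of the female tract, was at 0.582, 4.45, 4.65 and 3.34 CPM in PLATE libraries and 3.06, 3.16 and 9.22 CPM in acellular libraries. Sham libraries had 3.59, 4.36 and 2.72 CPM. Its controls ran from no read in control 2 over a median of 2.77 to 6.68 CPM. WNT6, WNT9A and WNT11 averaged 0.597, 1.24 and 0.622 CPM over the 16 libraries, and none had an unadjusted p under 0.05 in any of the 8 tests.

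The ligands with too few reads for a test were WNT10B with 84 counts over all libraries, WNT8B with 47, WNT10A with 34, WNT9B with 25, WNT1 with 17, and WNT3 and WNT3A with 1 each. WNT10B, known from fat and hair follicle, had 26 of its 84 counts in sham 11. FZD9 with 49 and RSPO2 with 25 counts were not tested either, and 10 of the RSPO2 counts were in PLATE 1. In the RefSeq gene table of the assembly mOryCun1.1, all 48 symbols were present, and 4 pairs of these genes are neighbours: WNT1 with WNT10B, WNT3 with WNT9B, WNT6 with WNT10A and WNT3A with WNT9A. Each pair has at least 1 gene with too few reads to test.

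The Frizzled receptors, which bind Wnt through a cysteine-rich domain outside the cell, did not pass the test in any comparison. FZD6, known for its part in the planar alignment of epithelial cells and hairs, was at 23.3, 85.7, 64.5 and 81.4 CPM in PLATE libraries and 52.1, 87.5 and 88.0 CPM in acellular libraries. Sham libraries had 43.7, 52.8 and 65.5 CPM, and controls 18.7, 57.1 and 93.6 CPM as lowest, median and highest. PLATE 1 and control 2 were the low libraries. FZD4, also the receptor of norrin in blood vessels, was at 13.6, 34.1, 38.0 and 40.9 CPM in PLATE libraries and 53.996, 29.5 and 32.6 CPM in acellular libraries. It was at 31.6, 34.6 and 44.1 CPM in sham libraries and between 18.8 and 65.3 CPM in controls, so that PLATE 1 was the lowest of all 16.

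FZD7, a receptor of the β-catenin branch in stem cells, was at 5.37, 9.56, 20.0 and 18.2 CPM in PLATE libraries and 25.8, 12.8 and 12.6 CPM in acellular libraries. Sham libraries had 16.3, 24.6 and 21.0 CPM, and controls a lowest value of 11.5, a median of 12.5 and a highest of 17.1 CPM. The lowest sham library lay inside the control range and the other two above it. The FZD7 log2 fold change in sham against control was 0.65 ± 0.342 (95% interval -0.07 to 1.38), and 0.75 without control 2 and PLATE 1. In PLATE against sham it was -0.63 ± 0.375, and -0.37 without PLATE 1. FZD1, FZD3 and FZD5 averaged 8.93, 11.2 and 2.43 CPM over the 16 libraries.

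In PLATE against acellular, all 6 Frizzled receptors tested had a log2 fold change below 0 (47.6% of all genes), with a median of -0.32. Without control 2 and PLATE 1 this was 4 of 6, with a median of -0.10. No Frizzled gene had an unadjusted p under 0.05 in that comparison.

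PLATE 1 was also the lowest library for the co-receptors LRP6 and ROR1, and for ROR2 it lay within the other PLATE libraries. LRP6, which starts the β-catenin branch beside Frizzled, was at 20.3, 87.6, 74.8 and 86.4 CPM in PLATE libraries and 86.3, 81.2 and 65.1 CPM in acellular libraries. It was at 89.9, 90.4 and 85.8 CPM in sham libraries, against 24.4, 78.0 and 98.7 CPM as the lowest, median and highest control. ROR1, a receptor tyrosine kinase that binds WNT5A, was at 2.72, 19.1, 14.0 and 15.4 CPM in PLATE libraries and 11.3, 18.6 and 7.84 CPM in acellular libraries. Sham libraries had 19.4, 20.5 and 25.2 CPM, and controls 7.96, 14.5 and 20.7 CPM as lowest, median and highest.

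The sham libraries were above all PLATE and acellular libraries for ROR1. The ROR1 log2 fold change was -0.76 in PLATE against sham (95% interval -1.78 to 0.27; -0.43 without control 2 and PLATE 1) and -0.79 in acellular against sham (95% interval -1.90 to 0.32). ROR2, the related WNT5A receptor, was at 29.1, 22.3, 26.5 and 31.1 CPM in PLATE libraries, 33.0, 16.7 and 17.3 CPM in acellular libraries and 31.9, 26.5 and 32.8 CPM in sham libraries. Its controls ran from 15.6 to 37.8 CPM. All 3 co-receptors had a log2 fold change below 0 in both graft groups against sham, with medians of -0.40 for PLATE and -0.44 for acellular libraries, where 47.4% and 47.8% of all genes were below 0. Leaving out control 2 and PLATE 1, all 3 were again below 0 in both, with medians of -0.20 and -0.43.

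In the R-spondin module, LGR5 had the widest range of all members. LGR5 is an R-spondin receptor that marks stem cells in intestine and hair follicle and is found in the epithelium of the reproductive tract. It was at 5.11, 204, 184 and 121 CPM in PLATE libraries, 152, 175 and 219 CPM in acellular libraries and 79.1, 104.6 and 168 CPM in sham libraries. In control 2 it had 1 count, and the control median and highest value were 145 and 268 CPM. The other 14 libraries all lay at or above 70.4 CPM. The groups overlapped, and the LGR5 log2 fold change against control was -0.06 in PLATE with a 95% interval of -2.11 to 1.99, and 0.08 ± 0.346 without control 2 and PLATE 1.

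Per 100 CPM of summed columnar epithelium markers, LGR5 had 2.94 CPM in PLATE 1 and 0.704 CPM in control 2, and 20.2 to 39.2 CPM in the other 14 libraries. Relative to these markers, LGR5 was thus also lowest in PLATE 1 and control 2.

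LGR4, the more widely expressed R-spondin receptor, was at 42.5, 94.8, 72.6 and 67.5 CPM in PLATE libraries and 79.3, 72.6 and 66.7 CPM in acellular libraries. It was at 98.3, 92.8 and 124 CPM in sham libraries and between 55.5 and 165 CPM in controls, with a median of 90.5 CPM. All acellular libraries were below the lowest sham library. The LGR4 log2 fold change was -0.49 ± 0.262 in PLATE against control, -0.60 ± 0.304 in PLATE against sham and -0.53 ± 0.328 in acellular against sham. In acellular against control it was -0.42 ± 0.288, and -0.21 without control 16.

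RSPO3, the R-spondin of vessels and stroma, was at 2.46, 9.78, 4.39 and 23.3 CPM in PLATE libraries and 26.8, 14.1 and 5.87 CPM in acellular libraries. It was at 10.4, 16.6 and 11.5 CPM in sham libraries, against 4.41, 6.78 and 12.3 CPM as the lowest, median and highest control. The RSPO3 log2 fold change in acellular against control was 1.12 ± 0.572 (95% interval -0.10 to 2.34), and 0.47 without acellular 6. ZNRF3 was at 1.23, 7.34, 4.71 and 9.99 CPM in PLATE libraries and 11.4, 5.98 and 5.52 CPM in acellular libraries. Sham libraries had 9.13, 10.9 and 10.5 CPM, and controls 5.12 to 10.2 CPM. The ZNRF3 log2 fold change in PLATE against sham was -0.80 ± 0.492, and -0.47 without PLATE 1.

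RNF43, the other ligase of the module, ran from 1.23 to 4.89 CPM in PLATE, 2.69 to 4.38 CPM in acellular, 1.07 to 4.08 CPM in sham and 1.17 to 8.16 CPM in control libraries. LGR6 averaged 0.618 CPM over all libraries. In PLATE against acellular all 6 tested genes of the module had a log2 fold change below 0 (47.6% of all genes), with a median of -0.45. Without control 2 and PLATE 1 this was 4 of 6, with a median of -0.11.

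The secreted antagonists held the members with the smallest p in PLATE against control and in sham against control. DKK3, a Dickkopf relative whose action on Wnt is debated, was at 65.8, 35.4, 57.7 and 57.7 CPM in PLATE libraries and 32.1, 59.3 and 27.0 CPM in acellular libraries. Sham libraries had 40.7, 48.0 and 51.7 CPM, and controls 24.9, 32.0 and 44.5 CPM as lowest, median and highest. In 3 of 4 PLATE libraries DKK3 was above every control. The mean was 54.1 ± 13.1 CPM in PLATE libraries (SD, n = 4) and 33.9 ± 8.25 CPM in control libraries (SD, n = 6). Its log2 fold change was 0.68 ± 0.239 (edgeR adjusted p = 0.998) and stayed between 0.57 and 0.83 with each library left out. It was 0.54 ± 0.275 without control 2 and PLATE 1, and its unadjusted p was no longer under 0.05. In PLATE against acellular it was 0.46 ± 0.289, with 0.25 without acellular 10 and 0.87 without acellular 8.

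DKK1, the classical inhibitor that binds LRP6, was at 4.27, 1.22, 1.99 and 2.75 CPM in PLATE libraries and at 20.9, 0.0672 and 2.22 CPM in acellular libraries, the second of these being 1 count. Sham libraries had 1.30, 1.63 and 1.15 CPM, and controls a lowest value of 1.17, a median of 3.56 and a highest of 46.1 CPM. The groups overlapped, and the highest value, in control 16, set the control mean. In sham against control the DKK1 log2 fold change was -2.97 ± 1.37 (edgeR adjusted p = 0.964), and -1.40 without control 16. In PLATE against control it was -2.07 ± 1.16, and -0.50 without control 16. In the 3 operated groups against control it was -1.84 ± 0.842, and -0.27 without control 16.

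The SFRP proteins and FRZB bind Wnt ligands directly. SFRP2, a stromal family member, was at 345, 413, 359 and 635 CPM in PLATE libraries and 256, 405 and 427 CPM in acellular libraries. It was at 860, 504 and 618 CPM in sham libraries, against 226, 369 and 755 CPM as the lowest, median and highest control. All acellular libraries were below the lowest sham library, with a log2 fold change of -0.87 ± 0.414 (edgeR adjusted p = 0.905). In sham against control SFRP2 had 0.70 ± 0.348, and 0.48 without sham 11.

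SFRP4 was at 5.04, 2.71, 3.56 and 5.07 CPM in PLATE libraries, 4.47, 1.41 and 1.73 CPM in acellular libraries and 6.05, 4.07 and 6.88 CPM in sham libraries. Its controls ran from 0.630 over a median of 1.61 to 7.42 CPM. The SFRP4 log2 fold change in sham against control was 1.24 ± 0.597, and 2.02 without control 29, which held the highest value. In acellular against sham it was -1.15 ± 0.721, and -1.85 without acellular 6. SFRP5 was low, from no read to 1.18 CPM in PLATE, 0.410 to 0.941 CPM in acellular, 0.419 to 1.91 CPM in sham and 0.180 to 0.840 CPM in control libraries. Its log2 fold change in sham against control was 1.55 ± 0.804.

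FRZB, the SFRP family member first known from cartilage, was at 15.6, 179, 208 and 205 CPM in PLATE libraries and 230.3, 363 and 149.8 CPM in acellular libraries. Sham libraries had 261, 243 and 268 CPM, and controls 76.4, 176 and 376 CPM as lowest, median and highest. All PLATE libraries were below all sham libraries, and PLATE 1 was lowest of all 16. WIF1, which also binds Wnt ligands, was at 1.16, 52.4, 87.4 and 29.8 CPM in PLATE libraries and 4.56, 96.5 and 123 CPM in acellular libraries. It was at 34.9, 13.1 and 1.40 CPM in sham libraries and between 1.98 and 118 CPM in controls. Each group of libraries spanned more than a 10-fold range of WIF1, and its log2 fold change in acellular against control was 1.27 with a 95% interval of -1.24 to 3.78. DKK2 ran from 2.07 to 6.94 CPM in PLATE, 3.26 to 14.6 CPM in acellular, 2.80 to 6.43 CPM in sham and 2.34 to 16.4 CPM in control libraries.

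**Figure D3:**
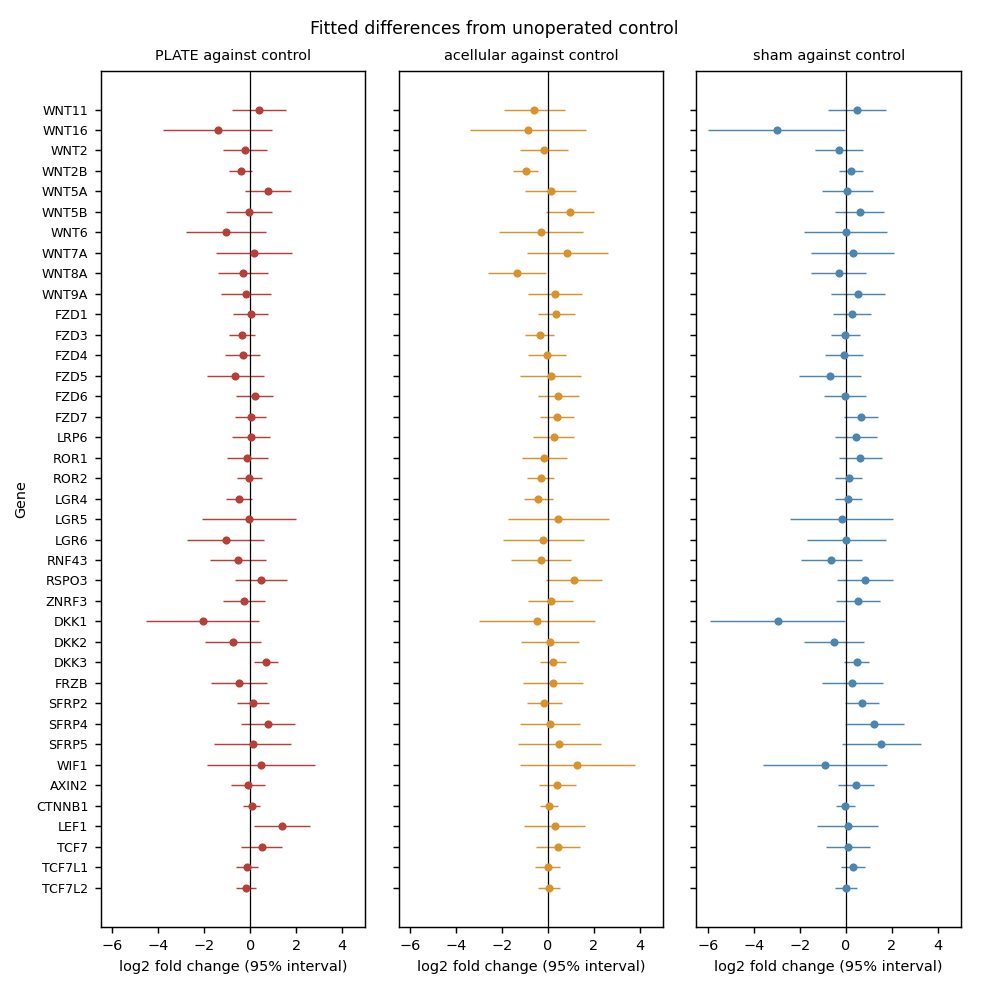
Points are fitted log2 fold changes of the 39 tested Wnt genes in PLATE, acellular and sham against control, and bars are 95% intervals. Most intervals include 0; WNT2B lies below it in acellular tissue (-0.96), and WNT16, DKK1, WIF1 and LGR5 have the widest intervals.

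Among the relay and nuclear genes, LEF1, a nuclear partner of β-catenin also made by lymphocytes, had the largest fitted increase in PLATE against control. It was at 36.3, 6.59, 5.91 and 9.64 CPM in PLATE libraries, 3.56, 8.67 and 8.24 CPM in acellular libraries and 5.77, 6.13 and 5.72 CPM in sham libraries. Controls had a lowest value of 1.17, a median of 4.85 and a highest of 12.8 CPM. PLATE 1 alone lay above the control range. The LEF1 log2 fold change was 1.38 ± 0.567 (edgeR adjusted p = 0.998) with all libraries, 0.40 without PLATE 1, and 0.19 without PLATE 1 and control 2. PLATE 1 also had the highest sum of leukocyte markers given above, and the part of leukocytes in its LEF1 level was not tested. In PLATE against sham and against acellular the values were 1.31 and 1.10, and 0.33 and 0.12 without PLATE 1.

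CTNNB1, the gene of β-catenin, was the steadiest member. It averaged 603 ± 88.3 CPM in PLATE (SD, n = 4), 592 ± 121 CPM in acellular (n = 3), 564 ± 9.10 CPM in sham (n = 3) and 574 ± 106.6 CPM in control libraries (n = 6). The 95% interval of its log2 fold change against control was -0.30 to 0.44 in PLATE, -0.36 to 0.45 in acellular and -0.43 to 0.38 in sham libraries. Its protein is regulated mainly by breakdown, which transcript counts do not measure.

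AXIN2, a feedback inhibitor commonly read as a target of β-catenin signalling, was at 3.10, 5.59, 4.24 and 6.89 CPM in PLATE libraries and 9.17, 6.92 and 4.74 CPM in acellular libraries. It was at 8.38, 8.04 and 5.10 CPM in sham libraries and between 2.34 and 7.48 CPM in controls, and the groups overlapped. TCF7L2, the TCF of most epithelia, was at 24.8, 43.7, 47.6 and 42.2 CPM in PLATE libraries and 58.4, 47.8 and 32.8 CPM in acellular libraries. Sham libraries had 40.2, 45.7 and 47.8 CPM, and controls 32.0, 48.95 and 50.98 CPM as lowest, median and highest. TCF7L1, known as a repressor in stem cells, was at 10.8, 17.6, 23.5 and 26.0 CPM in PLATE libraries, 26.8, 17.6 and 18.5 CPM in acellular libraries and 28.3, 24.1 and 26.6 CPM in sham libraries, with controls from 16.3 to 27.2 CPM. TCF7, the T cell factor, ran from 3.87 to 7.28 CPM in PLATE, 2.51 to 7.20 CPM in acellular, 3.07 to 4.98 CPM in sham and 1.58 to 6.31 CPM in control libraries.

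The members varied more between libraries than most genes. The SD of log2 CPM over the 16 libraries had a median of 0.763 for the 39 members and of 0.433 for all genes tested, and within groups the medians were 0.745 and 0.432. The widest were LGR5 (2.67), WIF1 (2.18), DKK1 (1.83) and WNT7A (1.54), and the narrowest CTNNB1 (0.211), TCF7L2 (0.315), TCF7L1 (0.368) and ROR2 (0.398). These SDs also depend on the number of reads behind a gene. Single libraries held many of the extremes. PLATE 1 was lowest of all libraries for 16 members, against 20.3% of all genes, and highest for 4, WNT5A, WNT11, DKK3 and LEF1, against 22.7% of all genes. Acellular 6 was highest for 8 members, against 9.31% of all genes: WNT5B, WNT9A, FZD5, FZD7, RSPO3, ZNRF3, AXIN2 and TCF7L2.

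Several members followed the tissue markers across libraries. Log2 CPM of the 39 members was correlated with the mean log2 CPM of the columnar epithelium, smooth muscle, fibroblast and leukocyte markers, which gave 156 relations. In 6 of them both Pearson's r and Spearman's rho passed an adjusted permutation p of 0.05. Genes outside the members were not correlated with these markers, so this count does not set the members apart. LGR5 followed columnar epithelium with r = 0.97 (adjusted permutation p = 0.00078) and rho = 0.89 (adjusted permutation p = 0.00156). Without PLATE 1 and control 2, the libraries farthest from the median of the markers, r was 0.92, and r was 0.98 for deviations from the group means.

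WNT7A followed the same markers with r = 0.96 (adjusted permutation p = 0.00078) and rho = 0.80 (adjusted permutation p = 0.0137). Without PLATE 1 and control 2 its r was 0.80 and its rho 0.71, and rho no longer passed (adjusted permutation p = 0.0903). Within groups its r was 0.97 and its rho 0.90, and both passed (adjusted permutation p = 0.0257 and 0.0161). FZD6 had r = 0.86 (adjusted permutation p = 0.00104) and rho = 0.79 (adjusted permutation p = 0.0143), and r = 0.70 and rho = 0.69 without these libraries, which did not pass (adjusted permutation p = 0.0686 and 0.103). Within groups its r was 0.85 and passed (adjusted permutation p = 0.0365), while rho was 0.73 and did not (adjusted permutation p = 0.0862). Columnar epithelium markers summed to 174 to 700 CPM in PLATE, 424 to 1083 CPM in acellular, 310 to 429 CPM in sham and 12.8 to 994 CPM in control libraries.

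LGR4 ran against the leukocyte markers, with r = -0.82 (adjusted permutation p = 0.0039) and rho = -0.81 (adjusted permutation p = 0.0137). Without PLATE 1 and acellular 6, the farthest libraries for these markers, r was -0.85, and r was -0.80 within groups. WNT2B followed the smooth muscle markers with r = 0.76 (adjusted permutation p = 0.0136) and rho = 0.79 (adjusted permutation p = 0.0137). Without control 2 and control 9 its r was 0.74 and its rho 0.75 (adjusted permutation p = 0.0354 and 0.0534). For deviations from the group means its r was 0.63 (adjusted permutation p = 0.237), which did not pass. WNT8A had r = 0.79 (adjusted permutation p = 0.00936) and rho = 0.80 (adjusted permutation p = 0.0137) with smooth muscle, 0.67 without control 2 and control 9 (adjusted permutation p = 0.0959) and 0.71 within groups (adjusted permutation p = 0.221). No member passed with the fibroblast markers. All values of a library share its depth and its scaling.

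**Figure D4:**
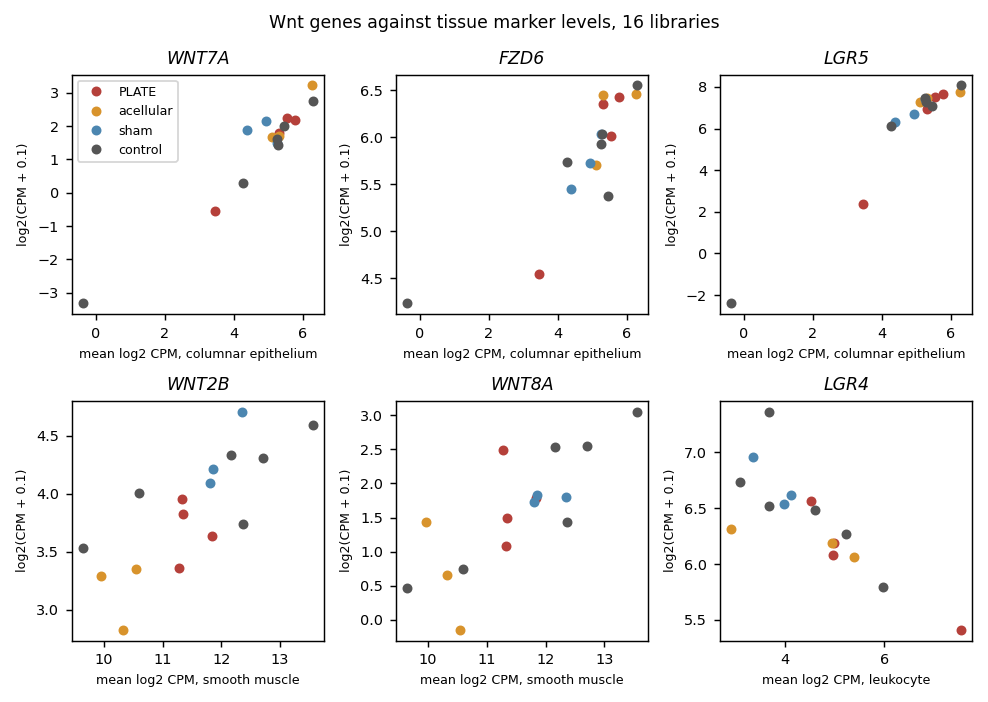
Each panel plots log2(CPM + 0.1) of a Wnt gene on the vertical axis against the mean log2 CPM of a tissue marker list, with 1 dot per library coloured by group. LGR5, WNT7A and FZD6 rise with columnar epithelium, WNT2B and WNT8A rise with smooth muscle, and LGR4 falls with leukocyte markers (r = -0.82).

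Of 60 further genes listed for the pathway, 44 were in the table and 42 were tested, and by edgeR 0 passed the adjusted threshold in any of the 8 tests. At an unadjusted p under 0.05 there were 2 of the 42 in PLATE against control (4.34% of all genes), 3 in acellular against control (5.91%) and 2 in sham against control (2.93%). Between the operated groups there were 2 in PLATE against sham (7.43% of all genes), 4 in acellular against sham (4.82%) and 5 in PLATE against acellular (4.64%). The median log2 fold change of the 42 genes lay between -0.21 (PLATE against sham) and 0.19 (sham against control).

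DACT1, a scaffold that binds Dishevelled and modulates both branches of the pathway, was, like WNT2B, lowest in the acellular libraries. It was at 12.2, 9.91, 6.64 and 5.36 CPM in PLATE libraries, 3.33, 3.23 and 2.96 CPM in acellular libraries and 11.6, 7.76 and 7.25 CPM in sham libraries. Controls had a lowest value of 3.52, a median of 9.17 and a highest of 15.9 CPM. All acellular libraries were below every other library. Acellular libraries lay without overlap below sham for 10.5% and below control for 1.02% of all genes, and PLATE above acellular libraries for 3.27%. The log2 fold change of DACT1 was -1.56 ± 0.445 in acellular against control, -1.48 in acellular against sham and 1.43 in PLATE against acellular. TRABD2B, a protease that cleaves Wnt proteins, averaged 2.62 ± 0.583 CPM in PLATE (SD, n = 4), 1.30 ± 0.170 CPM in acellular (n = 3), 2.58 ± 0.569 CPM in sham (n = 3) and 2.92 ± 1.18 CPM in control libraries (n = 6). GPC3, a cell-surface glypican, was at 29.9, 46.2, 18.5 and 27.0 CPM in PLATE libraries and 124, 44.3 and 91.4 CPM in acellular libraries. It was at 12.6, 39.5 and 32.9 CPM in sham libraries and between 5.67 and 69.6 CPM in controls. Acellular libraries were above all sham libraries for GPC3, as for 7.82% of all genes.

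CD44, a hyaluronan receptor often listed as a Wnt target, was at 679.6, 236, 409 and 341 CPM in PLATE libraries and 237, 262 and 291 CPM in acellular libraries. Sham libraries had 406, 294 and 374 CPM, and controls 198, 213 and 302 CPM as lowest, median and highest. The log2 fold change of CD44 was 0.86 ± 0.235 in PLATE against control, and 0.50 ± 0.199 without control 2 and PLATE 1. CCN4, a matricellular Wnt target, was at 19.7, 1.40, 1.10 and 3.54 CPM in PLATE libraries, with the high value again in PLATE 1. It was at 1.87, 0.202 and 1.09 CPM in acellular libraries, 2.23, 2.44 and 0.823 CPM in sham libraries and between 0.356 and 2.72 CPM in controls. The log2 fold change of CCN4 in PLATE against control was 2.36 ± 0.784, and 0.63 ± 0.693 without control 2 and PLATE 1. MMP7, an epithelial matrix protease and Wnt target, was at 1234, 5798, 7926 and 3674 CPM in PLATE libraries and 11.1, 9836 and 4413 CPM in acellular libraries. It was at 208, 443 and 115.6 CPM in sham libraries and between 26.7 and 6822 CPM in controls. All PLATE libraries were above all sham libraries for MMP7, where 14.9% of all genes had groups without overlap. The log2 fold change was 4.19, and 4.49 ± 1.83 (SE) without control 2 and PLATE 1.

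The core machinery showed smaller differences. WLS, which carries Wnt proteins to the cell surface, averaged 309.6 ± 36.8 CPM in PLATE (SD, n = 4), 331 ± 29.4 CPM in acellular (n = 3), 289 ± 33.7 CPM in sham (n = 3) and 285 ± 53.2 CPM in control libraries (n = 6). PORCN, which attaches the lipid to Wnt proteins, averaged 12.8, 11.1, 14.6 and 11.9 CPM in the same order. GSK3A, a kinase of the complex that marks β-catenin for breakdown, was at 76.0, 66.9 and 72.6 CPM in acellular libraries. All were below the lowest control at 76.9 CPM, as for 1.02% of all genes, with a log2 fold change of -0.30. The other genes with the smallest p of their list in the joint test were CSNK1A1, BTRC, DAAM2, VANGL2, PRICKLE2, PYGO1, PYGO2 and TLE3.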

How the data were processed

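Per the labels' protocols, RNA from up to 30 mg of frozen vagina was made into stranded poly(A) libraries and sequenced on a NovaSeq 6000. Per the submitters' processing notes, reads were checked with FastQC, aligned with HISAT2 2.2.1 and assigned to genes with featureCounts; genome build, annotation and strand setting are not given in the sources used here. In the deposited table the values are unnormalised counts of reads, 1 line for each gene symbol. A pooled line of reads without a gene name (22.9 to 28.5% of counts) was left out. Columns were matched to samples by their trailing index, because the middle number of the sample descriptions was the same in all.

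Counts were scaled by trimmed mean of M values, filtered with filterByExpr and fitted with edgeR 4.0.16 (quasi-likelihood F test, R 4.3.3) over all 16 libraries with a mean per group, leaving 12 residual degrees of freedom. P-values were adjusted by Benjamini-Hochberg over 10942 genes, at 0.05. A prior count of 2 was used for log2 CPM, and the common biological coefficient of variation was 0.44. P-values measure the spread between libraries, each labelled with 1 animal. Correlations used 100000 two-sided permutations, and within groups the libraries were permuted inside their group. Tested on simulated counts for acellular against control, the fit recovered 23% of genes changed 2-fold and 66% of those changed 4-fold. Each gene was simulated independently, so shifts shared by many genes of a library, as in PLATE 1 and control 2, were not included. The changed genes were drawn at random from all genes tested, so recovery for the members was not measured. The members varied more, with a median SD of log2 CPM within groups of 0.745 against 0.432 for all genes.

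The members and lists were chosen with earlier results of these data known. Genes named with values were, per comparison, those past the threshold and otherwise the 5 members with the smallest p, the 3 with the highest mean CPM per role, and, of the further pathway genes, the 3 with the smallest joint p per list; others were named after their values were seen. Alternatives were DESeq2 1.42.0 and its size factors, limma 3.58.1 voom, no filter, the compared groups alone, and libraries left out. Sequences were not used here.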

Additional observations from a re-analysis of the deposited data

Results flagged for a closer look

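In groups of at least 4 libraries, a library far from the rest of its group was looked for in the PLATE and control groups. It was found for 9 of 78 tests of a member, where a nominal rate of about 1 in 20 gives 3.9. The share over all genes was not computed, so this count does not set the members apart. Of the 9, 6 are PLATE 1, and the tests share this library. PLATE 1 was also lowest of all libraries for 20.3% and highest for 22.7% of all genes. LGR5 was at 5.11 CPM in PLATE 1 (121 to 204 CPM in the other PLATE libraries). FRZB was at 15.6 CPM there (179 to 208), LRP6 at 20.3 CPM (74.8 to 87.6), FZD4 at 13.6 CPM (34.1 to 40.9), ROR1 at 2.72 CPM (14.0 to 19.1) and WNT7A at 0.582 CPM (3.34 to 4.65). In control 2, LGR5 was at 0.09 CPM (70.4 to 268 CPM in the other controls) and FZD1 at 1.89 CPM (6.42 to 11.9). WNT6 had 0 reads in control 24 (0.486 to 1.17 CPM in the other controls).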

How the results depend on the processing

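No alternative moved a Wnt member past the adjusted threshold. Over all genes, edgeR called 0 in each comparison, and DESeq2 called 17 in acellular against control, 14 in PLATE against sham, and 1 each in acellular against sham, PLATE against acellular, the 3 operated groups against control and the joint test; limma voom called 72 in acellular against sham. The cause was not tested. DKK1 in acellular against sham, 2.51 in the fit, was -1.69 under voom and ran from -0.22 (without acellular 6) to 3.08 (without acellular 8) with each library left out. With deviations from the group means, 3 of the 156 relations with markers passed, against 6. With each library left out, edgeR called 0 to 0 genes in every comparison, and the median log2 fold change of the members ran from -0.21 to 0.07 in PLATE against control, -0.12 to 0.21 in acellular against control, 0.05 to 0.26 in sham against control, -0.36 to -0.12 in PLATE against sham, -0.27 to 0.02 in acellular against sham, -0.36 to -0.01 in PLATE against acellular and 0.04 to 0.16 in the operated groups against control. Fits of the compared groups alone were not run for the operated groups against control and the joint test, which use all groups. No paired analysis was possible because the groups compared share fewer than 2 numbers. Groups of 3 to 6 libraries limit the test to large differences, and reads limit members near the floor of 3 counts.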
